A study of Mus musculus with 18 samples.

Results

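The 8 genes described here encode the short pentraxins Crp and Apcs, the proteins Lbp, Cd14, Tlr4 and Ly96 that recognise bacterial endotoxin, the related receptor Tlr2 and the adaptor Myd88 that passes the signal on. They were taken by gene symbol from 3 gene count tables of mouse liver, which together list 21018 genes, and all 8 are listed in each table. Livers came from 12-week-old male C57/B6J mice, of which 3 (mice I9579, I9582 and I9583) had been given 20 µg/Kg of IL-1β and 3 (mice U9574, U9575 and U9576) saline by intraperitoneal injection 4 h earlier. IL-1β, an inflammatory cytokine, makes the liver release acute-phase proteins. The RNA of each mouse was prepared with 3 kits, which gave 18 libraries. Pico is a stranded kit for total RNA that removes ribosomal cDNA with an enzyme (1.7 to 2.6 ng of RNA, 150 bp reads), V4 selects poly(A) RNA and keeps no strand (0.8 to 1.3 ng, 150 bp), and TruSeq selects poly(A) RNA and keeps the strand (200 ng, 125 bp). The kits also differed in sequencing run, and TruSeq also in sequencer model. The paper's methods credit the TruSeq libraries to an earlier study. Kit and run thus cannot be told apart. The question asked of each gene was how far its RNA level differed between IL-1β and saline within a kit, and whether the 3 kits gave a different response.

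Pentraxins are pentameric plasma proteins made by hepatocytes. They bind ligands such as phosphocholine on microbes and damaged cells and hand them to complement and Fc receptors. In the mouse, serum amyloid P component, the product of Apcs, is the classical acute-phase pentraxin, and C-reactive protein, the product of Crp, is regarded as a minor one. Endotoxin, the lipopolysaccharide of Gram-negative bacteria, is picked up in plasma by LBP, passed to CD14 and presented to the pair of TLR4 and its co-receptor MD-2, the product of Ly96. TLR2 recognises bacterial lipoproteins, also with the help of CD14. Both receptors, like the IL-1 receptor, signal through the adaptor MyD88.

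RNA of 7 of the 8 genes was higher after IL-1β in each of the 3 kits, and none was lower. Cd14 and Tlr2 had the largest differences of the 8, at 115-fold and 40.0-fold with Pico, 129-fold and 67.2-fold with V4 and 119-fold and 51.5-fold with TruSeq (ratio of mean CPM, which is a gene's counts scaled to the same library total, 3 mice a group). The pentraxins Crp and Apcs, the transfer protein Lbp, the adaptor Myd88 and the co-receptor Ly96 were higher by 3.02-fold to 12.96-fold, depending on gene and kit. Tlr4 was the exception, with 0 to 31 counts per library and no call in any kit. A gene was called at an adjusted p of at most 0.05 (limma-voom, Benjamini-Hochberg over all genes tested in the kit). The 7 of 8 stood against 6.78% of 18108 genes called higher with Pico, 3.6% of 18051 with V4 and 12.3% of 19424 with TruSeq, and the 0 of 8 lower against 10.8%, 7.41% and 21.8%. The median log2 fold change of the 8 genes was 2.90 with Pico, 2.29 with V4 and 2.45 with TruSeq, against -0.12, -0.22 and -0.17 over all genes. In every kit each IL-1β library was above each saline library for the same 7 genes. That order was shared by 12.6% of all genes with Pico, 9.09% with V4 and 17.1% with TruSeq. The 8 genes, like the markers and pathway lists below, were chosen with earlier results of these data known. The contrasts with all genes are thus partly set by that choice and are no test. All genes also include many with few counts. With at least 10 counts in 3 libraries, 1299 of 11318 genes were called higher with Pico, 696 of 11821 with V4 and 2363 of 12755 with TruSeq.

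**Figure D1:**
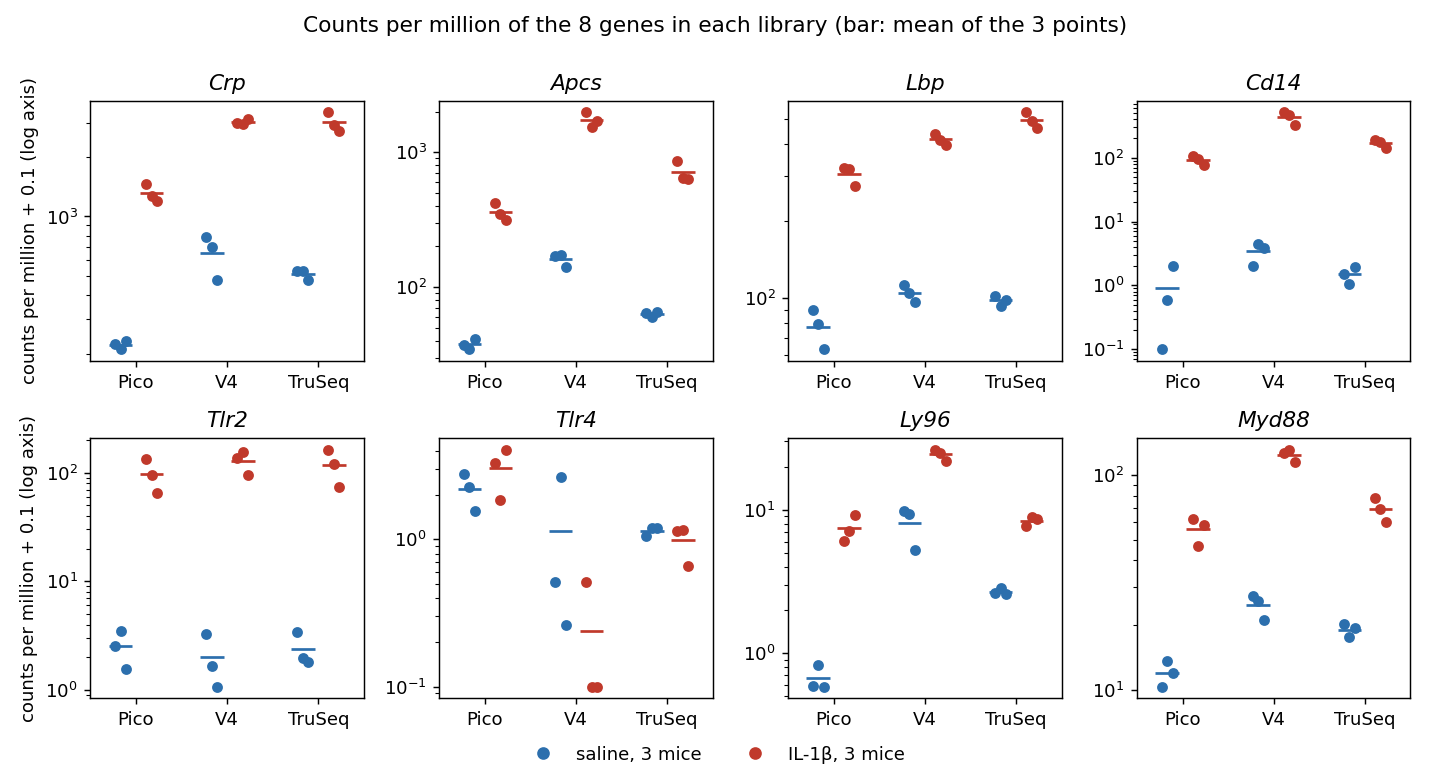
CPM plus 0.1 (log axis) of the 8 genes in each of the 18 libraries, by kit, with saline in blue and IL-1β in red; each point is 1 mouse, in the order of the mouse numbers, and each bar is the mean of 3. The red points lie above the blue points for every gene and kit except Tlr4, where they overlap in all 3 kits.

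The libraries carried 4024632 to 4134070 counted reads with Pico, 12013453 to 12352473 with V4 and 12348864 to 12858237 with TruSeq, so that a Pico count rests on fewer reads. The hepatocyte markers summed to between 44608 and 113309 CPM in every library, so the markers of the labelled tissue were present. Scaling by TMM factors, in place of library totals, moved the median over all genes up, by 0.13 for Pico, 0.17 for V4 and 0.16 for TruSeq on the log2 scale. It changed the split of all calls from 1228 higher and 1951 lower to 1658 and 1478 with Pico, from 649 and 1337 to 864 and 874 with V4 and from 2382 and 4232 to 3241 and 3127 with TruSeq. These shifts are small beside the differences of the 7 called genes. In liver tissue, fewer cells of a type and less RNA per cell cannot be told apart.

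Windows before the transcription start are shown for the genes whose RNA differed and for which a RefSeq promoter entry (GRCm38.p6) was matched by symbol, 4 of the 8: Crp, Apcs, Tlr2 and Myd88. The entries are drawn from RefSeq and were placed in the mm9 genome by exact match, with 1 match each, and only bases outside the annotated gene are printed, 5′ to 3′ on the strand of the gene, so that none of the Myd88 window is shown. Capitals mark letters that matched a searched motif on either strand.
Crp, chr1:174627937-174628186, plus strand: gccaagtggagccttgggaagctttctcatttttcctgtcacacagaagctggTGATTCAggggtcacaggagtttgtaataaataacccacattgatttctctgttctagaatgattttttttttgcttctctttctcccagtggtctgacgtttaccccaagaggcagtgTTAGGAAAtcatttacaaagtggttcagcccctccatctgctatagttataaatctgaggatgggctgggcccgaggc
Apcs, chr1:174825186-174825435, minus strand: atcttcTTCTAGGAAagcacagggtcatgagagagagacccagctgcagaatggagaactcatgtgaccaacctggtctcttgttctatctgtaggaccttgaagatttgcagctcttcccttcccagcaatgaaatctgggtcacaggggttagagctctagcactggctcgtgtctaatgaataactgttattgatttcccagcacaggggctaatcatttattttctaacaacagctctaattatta
Tlr2, chr3:83645690-83645780, minus strand: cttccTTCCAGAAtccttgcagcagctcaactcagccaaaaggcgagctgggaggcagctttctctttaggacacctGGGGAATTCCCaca

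Positions are counted backward from the RefSeq start, with -1 the base before it, over windows of 250 bases. That start lay inside the annotated gene for Tlr2 (offset -159 bases) and Myd88 (offset -1393 bases). The whole Myd88 window, with any match in it, thus lies within the annotated gene. The NF-kappaB consensus of 10 letters, searched in its degenerate form, matched in the Tlr2 window and in none of the other 3, in 2 overlapping places from -173 to -163. It matched in 3.90% of 32851 promoter windows of the same length. The C/EBP letters TTNNGNAA matched in Crp from -78 to -71 and in Tlr2 from -245 to -238, and in 36.8% of all windows, so that such a match is common. The STAT letters TTCNNNGAA matched in Apcs from -244 to -236 and in Myd88 from -46 to -38 (7.02% of windows), and the AP-1 letters TGANTCA in Crp from -197 to -191 (6.75%). No match of another motif overlapped these. A match is a description of the letters in the window, and the counts hold no measure of binding.

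Crp (ENSMUSG00000037942) is a gene of chromosome 1, plus strand, at 174628187 to 174630097 in mm9, with 2 exons and 1698 bases of exon. In Pico, it had 5897, 5126 and 4841 counts in the IL-1β mice I9579, I9582 and I9583 and 918, 867 and 956 in the saline mice U9574, U9575 and U9576, the order kept below. In V4, the counts of Crp were 36600, 35807 and 38027 after IL-1β and 9425, 8460 and 5869 after saline. TruSeq counted 42157, 36210 and 33959 reads of Crp after IL-1β and 6703, 6721 and 6077 after saline. The groups were thus far apart in every kit, and the most uneven group was saline in V4, where mouse U9576 was the lowest. The fold was 5.90 with Pico, 4.66 with V4 and 5.93 with TruSeq, with log2 fold changes of 2.56 ± 0.10 (SE; adjusted p = 4.4e-11), 2.25 ± 0.16 (1.6e-05) and 2.56 ± 0.10 (5.51e-07). Crp alone took 0.274% to 0.339% of the counted reads of an IL-1β library in TruSeq, against 0.0473% to 0.0530% after saline.

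Apcs (ENSMUSG00000026542) lies on the same chromosome, on the minus strand from 174824093 to 174825185, with 2 exons and 983 bases of exon. It begins 193995 bases beyond the end of Crp, and the 1 gene annotated between them is listed in none of the tables. Pico gave 1688, 1390 and 1275 counts of Apcs after IL-1β and 151, 142 and 171 after saline. V4 gave 24052, 18510 and 20614 counts against 2047, 2073 and 1754. TruSeq gave 10646, 7935 and 7796 against 808, 767 and 837. Mouse I9579 was the highest IL-1β mouse for Apcs in all 3 kits, and no saline library came near an IL-1β library. The fold was larger than that of Crp in each kit, at 9.56 with Pico, 10.8 with V4 and 11.3 with TruSeq, although the 2 folds were not tested against each other. The log2 fold changes were 3.25 ± 0.17 (adjusted p = 1.12e-09), 3.43 ± 0.15 (3.88e-07) and 3.48 ± 0.13 (4.83e-07). The markers of hepatocytes, the cells that make the pentraxins, went the other way in their sum, from 62141 to 75250 CPM after saline to 50408 to 55717 after IL-1β in Pico. In V4 this sum moved from 54450 to 67062 down to 44608 to 49009, and in TruSeq from 95435 to 113309 down to 69695 to 76000.4. Of the 7 hepatocyte markers, 6 were called lower with Pico, 3 with V4 and 4 with TruSeq, against 10.8%, 7.41% and 21.8% of all genes. Tat was called higher in all 3 kits. The lower calls in Pico became 4 with TMM factors, edgeR or DESeq2 and 2 with no filter. Those in V4 became 2 with TMM factors or no filter and 1 with edgeR or DESeq2. Those in TruSeq became 3 with TMM factors, edgeR, DESeq2 or no filter. Tat lost its call in V4 with no filter. Alb had the highest mean of the 7 after saline, at 43026 CPM with Pico, 23395 with V4 and 76517 with TruSeq, so it weighs most in the sums.

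Lbp (ENSMUSG00000016024), for the plasma protein that extracts endotoxin and delivers it to CD14, lies on the plus strand of chromosome 2 from 158132229 to 158158588, with 15 exon blocks over 5 annotated transcripts. It had 1309, 1289 and 1111 counts after IL-1β and 366, 326 and 261 after saline in Pico. The V4 libraries held 5342, 4998 and 4796 against 1358, 1264 and 1192 counts of Lbp. The TruSeq libraries held 6606, 6101 and 5708 against 1291, 1198 and 1263. The lowest IL-1β library of Lbp was mouse I9583 in each kit, still well above the highest saline library. Its fold was 3.96 with Pico, 3.98 with V4 and 5.06 with TruSeq, with log2 fold changes of 1.996 ± 0.14 (adjusted p = 6.38e-08), 1.996 ± 0.14 (1.65e-05) and 2.34 ± 0.09 (5.51e-07).

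Cd14 (ENSMUSG00000051439), for the receptor that takes endotoxin from LBP on myeloid cells and in plasma, lies on the minus strand of chromosome 18 from 36884728 to 36886390, with 2 exons. After saline it was close to the limit of detection in Pico, with 0, 2 and 8 counts, against 426, 388 and 306 after IL-1β. V4 counted 6216, 5640 and 3966 reads of Cd14 after IL-1β and 23, 53 and 47 after saline. TruSeq counted 2317, 2162 and 1733 against 18, 12 and 24. Cd14 thus went from a trace to a level among the upper genes of the library, from rank 11792 to rank 720 of 19424 genes by mean CPM in TruSeq. The log2 fold changes were 7.42 ± 0.76 (adjusted p = 3.9e-06) in Pico, 7.05 ± 0.47 (9.2e-06) in V4 and 6.89 ± 0.30 (9.08e-07) in TruSeq. Because only 10 saline reads stood behind the Pico value, the ratio of summed counts was 114 with an exact 95% interval of 61.8 to 239, which covers counting error only. The Pico log2 fold change was 6.36 without saline mouse U9574 and 8.39 without saline mouse U9576, so that its size rests on single saline libraries.

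Tlr2 (ENSMUSG00000027995), for the lipoprotein receptor, lies on the minus strand of chromosome 3 from 83640195 to 83645689, with 3 exons. Its counts in Pico were 538, 381 and 261 after IL-1β and 10, 14 and 6 after saline. In V4, Tlr2 had 1646, 1858 and 1138 against 38, 19 and 12 counts. The TruSeq counts of Tlr2 were 2022, 1473 and 916 against 42, 24 and 22. The IL-1β mice differed more for Tlr2 than for the other called genes in each kit. The coefficient of variation was 35.3% in Pico, 37.6% in TruSeq and 23.9% in V4, where Cd14 was close at 22.2%. Mouse I9583 was the lowest for Tlr2 in all 3 kits. The groups nevertheless stayed apart in each kit, with log2 fold changes of 5.27 ± 0.64 (adjusted p = 2.17e-05) in Pico, 6.18 ± 0.57 (0.000106) in V4 and 5.66 ± 0.46 (2.65e-05) in TruSeq.

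Markers of blood myeloid cells moved with Cd14 and Tlr2. The 10 neutrophil markers summed to 0.971 to 5.14 CPM after saline and to 38.6 to 48.9 after IL-1β with Pico, to 2.15 to 5.41 and 42.6 to 80.5 with V4 and to 3.36 to 6.32 and 45.5 to 89.2 with TruSeq. Of those tested, 6 of 6 were called higher with Pico, 5 of 8 with V4 and 6 of 9 with TruSeq, against 6.78%, 3.6% and 12.3% of all genes. S100a8, S100a9 and Cxcr2 were among them in every kit. Of the granule genes on the list, Ngp was called higher in every kit, at a mean of 1.40 CPM with Pico, 2.07 with V4 and 0.835 with TruSeq after IL-1β and no read after saline. Camp, also without a saline read, stood at 0.304 CPM after IL-1β in V4 (adjusted p = 0.0523) and 0.134 in TruSeq (adjusted p = 0.116) and was not called. Elane was not called either, at a mean of 0.0821 CPM after IL-1β and 0.0555 after saline in V4 and 0.0270 and 0.105 in TruSeq, and Mpo is listed in no table. With no filter on counts, 3 of 9 neutrophil markers were called higher with Pico. Monocyte marker sums were 10.9 to 22.4 after IL-1β against 4.35 to 6.61 with Pico, 19.7 to 21.6 against 4.22 to 10.2 with V4 and 12.3 to 18.7 against 6.38 to 8.69 with TruSeq, with 1, 1 and 3 of 5 called higher. Vcan was called in Pico and TruSeq, Plac8 in V4 and TruSeq and Chi3l3 in TruSeq. Ly6c2 and Ccr2 were called in no kit, and Ccr2 had log2 fold changes of -0.57 with Pico, 1.36 with V4 and -0.32 with TruSeq. With no filter, 0 of 5 monocyte markers were called higher with V4. The Kupffer cell and resident macrophage markers went the other way, from 187 to 246 down to 103 to 139.9 with Pico, from 102 to 199.9 down to 53.0 to 83.2 with V4 and from 136 to 229 down to 67.3 to 97.7 with TruSeq. Of these 8 markers 4, 2 and 5 were called lower, against 10.8%, 7.41% and 21.8% of all genes. Marco was called higher in TruSeq, though not without mouse U9575 or U9576 (adjusted p = 0.0529 and 0.0566). The 2 lower calls in V4 became 1 with TMM factors, 4 with edgeR, DESeq2 or the filter of 10 counts in 3 libraries, and 0 with no filter, which also left 2 of the 4 in Pico. The part of these cells in the values of Cd14, Tlr2, Ly96 and Myd88 was not tested.

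**Figure D2:**
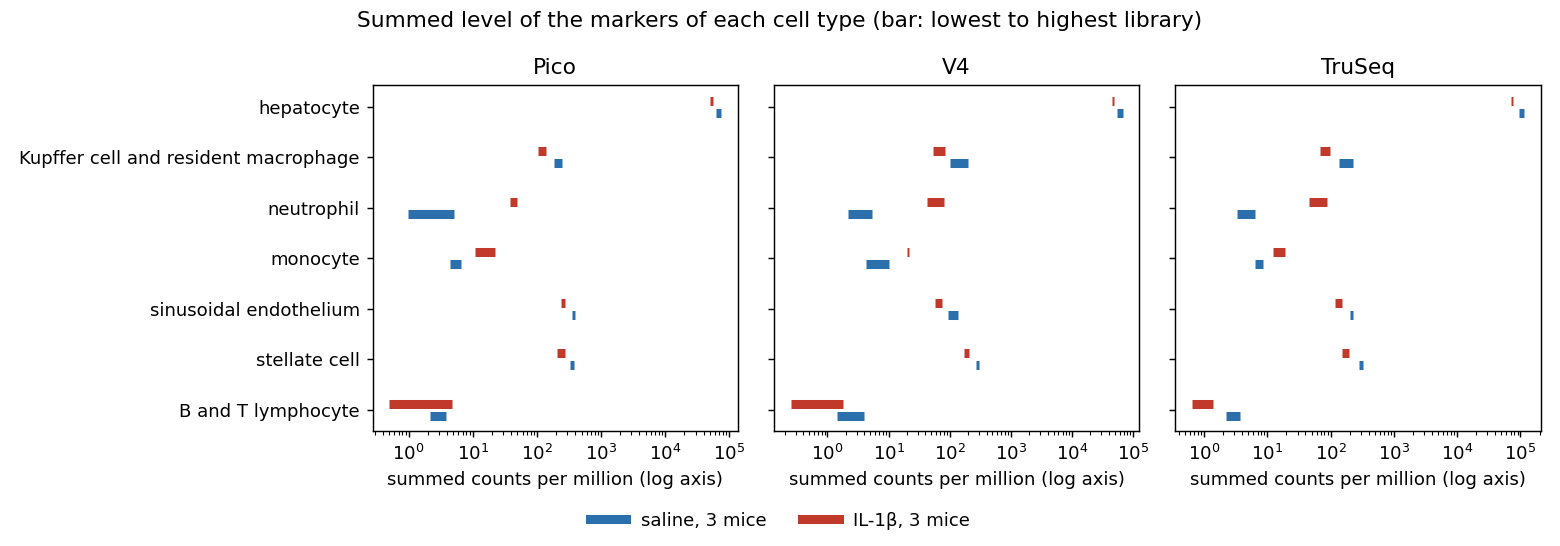
Summed CPM (log axis) of the markers of 7 cell types in each kit; each bar runs from the lowest to the highest of 3 libraries, saline in blue and IL-1β in red. The neutrophil and monocyte bars are higher after IL-1β in all 3 kits and the hepatocyte, Kupffer cell, endothelial and stellate bars lower, while the lymphocyte bars overlap in Pico and V4.

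The summed endothelial and stellate markers were lower after IL-1β in each kit, although most single markers were not called in V4. Sinusoidal endothelial markers summed to 358 to 395 after saline and 239 to 276 after IL-1β with Pico, 94.9 to 137 and 58.4 to 74.4 with V4 and 201 to 224 and 115 to 154 with TruSeq. Stellate cell markers summed to 326 to 376 and 204 to 280.3, 267 to 305 and 174 to 204, and 284 to 322 and 153 to 198 in the same kits. Of the 7 endothelial markers, 3 were called lower with Pico, 2 with V4 and 5 with TruSeq, while Lyve1 was called higher with Pico (log2 fold change 1.65, adjusted p = 9.48e-05) and TruSeq (0.94, adjusted p = 0.000409). Of the 6 stellate markers 3, 2 and 4 were called lower. The shares of all genes called lower were 10.8% with Pico, 7.41% with V4 and 21.8% with TruSeq. With no filter, the lower endothelial calls in V4 became 0 and the stellate calls in Pico 1. The lymphocyte markers stayed below 5 CPM throughout, at 0.249 to 4.70.

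Tlr4 (ENSMUSG00000039005), for the signalling receptor of endotoxin, lies on the plus strand of chromosome 4 from 66488618 to 66591318, with 6 exon blocks over 4 transcripts. It had the fewest reads of the 8 genes in the IL-1β libraries of every kit. Pico counted 13, 7 and 16 reads after IL-1β and 11, 9 and 6 after saline. V4 counted 5, 0 and 0 against 5, 31 and 2. TruSeq counted 13, 13 and 7 against 12, 14 and 14. The groups overlapped in each kit, and 31 of the 38 saline reads in V4 came from mouse U9575. A count of 0 in a V4 library allows up to 3 reads. The log2 fold change was 0.44 in Pico (95% interval -0.82 to 1.70, adjusted p = 0.678), -2.76 in V4 (-5.42 to -0.09, adjusted p = 0.184) and -0.27 in TruSeq (-1.04 to 0.50, adjusted p = 0.576). An increase of the size seen in the other 7 genes thus lay outside the TruSeq interval.

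Ly96 (ENSMUSG00000025779), for the co-receptor MD-2 that holds the lipid part of endotoxin, lies on the plus strand of chromosome 1 from 16678537 to 16699686, with 5 exons and only 603 bases of exon. It had 24, 28 and 37 counts after IL-1β and 2, 3 and 2 after saline in Pico. V4 gave 318, 298 and 264 counts of Ly96 against 117, 112 and 63. TruSeq gave 95, 109 and 105 against 32, 35 and 32. Every IL-1β library was above every saline library in each kit. The fold was 3.02 in V4 and 3.22 in TruSeq, and 12.96 in Pico, where 7 saline reads in all gave a ratio with an exact 95% interval of 6.03 to 33.1 for counting error alone. The log2 fold changes were 3.43 ± 0.62 (adjusted p = 0.000935), 1.65 ± 0.30 (0.0065) and 1.67 ± 0.18 (0.000114) in Pico, V4 and TruSeq. So the receptor Tlr4 and its co-receptor Ly96 did not have the same pattern of calls, although the difference between the 2 genes was not itself tested.

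Myd88 (ENSMUSG00000032508), the shared adaptor, lies on the minus strand of chromosome 9 from 119245052 to 119250529, with 5 exon blocks over 4 transcripts. It had 251, 187 and 236 counts in Pico after IL-1β and 42, 56 and 49 after saline. In V4, Myd88 had 1537, 1573 and 1379 against 328, 313 and 261. In TruSeq, Myd88 had 967, 857 and 749 against 255, 225 and 248. The groups were apart in all 3 kits with little spread within them. The fold was 4.67, 4.99 and 3.64 in Pico, V4 and TruSeq, with log2 fold changes of 2.21 ± 0.24 (adjusted p = 8.49e-06), 2.33 ± 0.19 (4.17e-05) and 1.86 ± 0.13 (9.95e-06). Its exons share 67 bases with those of Acaa1a on the opposite strand, so that V4, which keeps no strand, cannot tell reads of the 2 genes apart there.

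**Figure D3:**
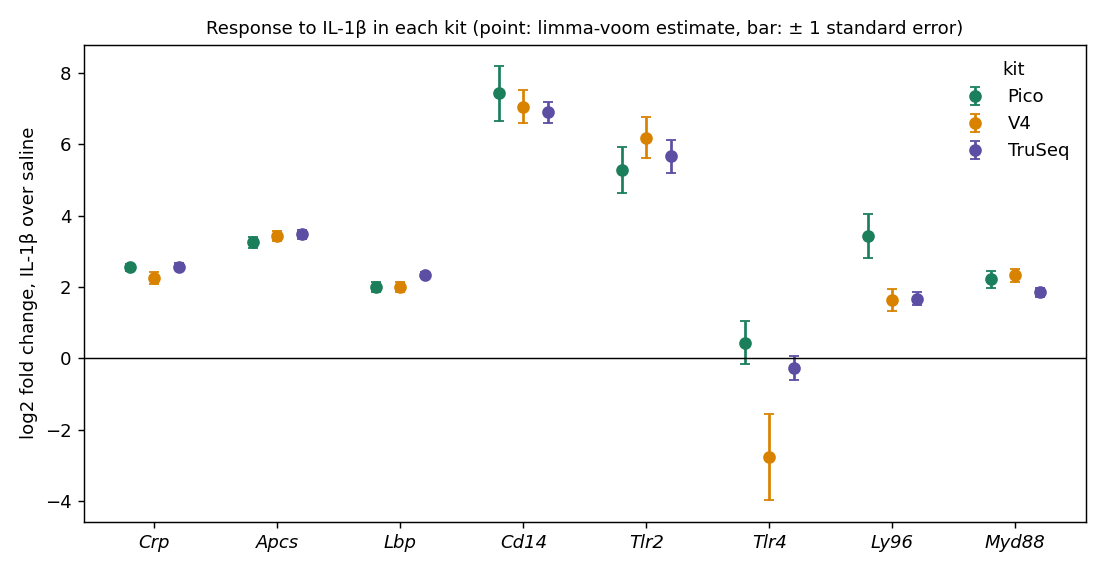
Log2 fold change of IL-1β over saline for the 8 genes in Pico, V4 and TruSeq; points are limma-voom estimates from 3 against 3 mice and bars are 1 standard error. Cd14 is highest at 6.89 to 7.42, followed by Tlr2, and Tlr4 is the only gene with points on both sides of 0.

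Within the IL-1β group the same mice tended to be high and low. Over the 7 called genes and 3 kits, mouse I9579 was the highest of the 3 in 16 of 21 gene and kit pairs and mouse I9583 the lowest in 16 of 21. The 3 kits share the RNA of a mouse, so these pairs are not independent. The 8 genes together took 0.0344% to 0.0367% of the counted reads after saline and 0.2001% to 0.251% after IL-1β in Pico. In V4 this share went from 0.0745% to 0.111% up to 0.570% to 0.622%, and in TruSeq from 0.0662% to 0.0724% up to 0.411% to 0.522%.

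Levels between genes were compared within a kit as RPKM, the CPM divided by the kilobases of merged exon. After saline, Crp was the highest of the 8 in each kit, at 131 ± 6.28 with Pico, 385 ± 94.2 with V4 and 299.9 ± 18.7 with TruSeq (SD, n = 3). Apcs followed at 38.3 ± 3.55, 164 ± 17.0 and 64.0 ± 2.74, and then Lbp at 16.0 ± 2.77, 21.7 ± 1.71 and 20.3 ± 0.87. On this length, those 3 genes of the plasma proteins kept apart from each other and from the rest in all kits. With the longest transcript of Lbp, its saline level in Pico was 30.6 and its range overlapped that of Apcs. Among the membrane and intracellular members Myd88 stood at 4.62 to 9.62 and Ly96 at 0.941 to 13.3 on average, and their ranges overlapped in V4. Tlr2, at 0.631 to 0.808, and Cd14, at 0.513 to 2.14, had overlapping ranges in Pico and TruSeq, and Ly96 and Tlr2 overlapped in Pico. Tlr4 had the lowest mean, at 0.188 to 0.380, although on the longest transcript it stood at 0.518 in Pico, against 0.513 for Cd14, and its range overlapped those of Cd14 and Tlr2 in Pico and that of Tlr2 in V4.

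After IL-1β, Crp was still first in Pico (771 ± 78.4) and TruSeq (1779 ± 198), while in V4 Crp (1792 ± 57.7) and Apcs (1770.3 ± 226) had overlapping ranges. Cd14 moved up to the level of Lbp, with overlapping ranges in Pico (58.8 ± 9.63 against 63.4 ± 5.61) and TruSeq (106 ± 15.5 against 103 ± 7.42), and to a level above it in V4 (277 ± 60.4 against 86.3 ± 4.27). With the longest transcript of Lbp as its length, Lbp came to 121 with Pico, 165 with V4 and 196 with TruSeq, above Cd14 in Pico and TruSeq. Tlr2 (32.3 to 42.4) and Myd88 (21.6 to 48.0) overlapped in each kit. Tlr4 stayed last, at 0.0246 to 0.535, below its co-receptor Ly96 at 12.2 to 40.2.

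**Figure D4:**
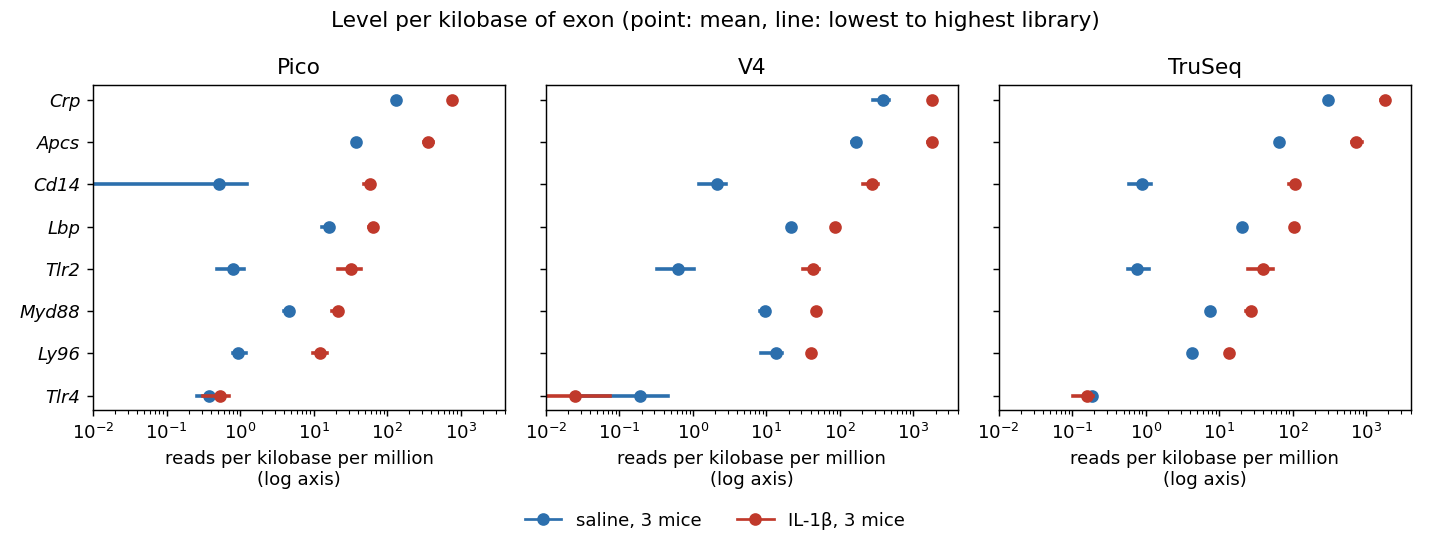
Level of the 8 genes in RPKM (log axis) by kit, after saline in blue and after IL-1β in red; points are means of 3 mice and lines run from the lowest to the highest library, with lines that reach 0 drawn to the left edge. Crp and Apcs are at the top in each panel and Tlr4 at the bottom, and Cd14 and Tlr2 have the widest gap between the colours.

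The difference in response between kits was tested as an interaction of kit and treatment over the 12 libraries of 2 kits. No member was called in any of the 3 interactions, and 0% of all genes were called either, in 17207, 17147 and 16395 genes. At an unadjusted p under 0.05 there were 945 genes for Pico minus TruSeq, 1090 for V4 minus TruSeq and 900 for Pico minus V4. edgeR called 0 genes in each, DESeq2 called 4, 72 and 17, and adding the mouse as a replicate block gave 1, 0 and 0. Without mouse U9576, limma-voom called 59 genes for V4 minus TruSeq and 39 for Pico minus V4. The member furthest from 0 by its standard error was Ly96, whose log2 fold change was larger in Pico than in TruSeq by 1.77 (95% interval 0.70 to 2.83, adjusted p = 0.839). Against V4 it was larger by 1.79 (0.25 to 3.33, adjusted p = 0.850). The Pico side of both rests on the 7 saline reads.

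For Crp the interval of the difference was narrow, -0.32 to 0.30 for Pico minus TruSeq, -0.75 to 0.13 for V4 minus TruSeq and -0.16 to 0.76 for Pico minus V4. Lbp had a lower log2 fold change than in TruSeq by 0.34 in both of the other kits, with intervals of -0.69 to 0.01 for Pico and -0.66 to -0.02 for V4 (adjusted p = 0.900 and 0.752). These fits treat libraries of the same mouse as independent. With the mouse as a replicate block, the Lbp intervals were -0.61 to -0.09 for Pico and -0.58 to -0.11 for V4 (adjusted p = 0.642 and 0.511). The Crp interval for V4 minus TruSeq was then -0.658 to -0.002 (adjusted p = 0.677). For Myd88 the difference of V4 from TruSeq was 0.47 (0.00 to 0.94, adjusted p = 0.785). The intervals of Cd14 and Tlr2 were wide, for instance -1.23 to 2.29 for Cd14 and -2.45 to 1.68 for Tlr2 in Pico minus TruSeq, and for Tlr4 in Pico minus V4 the difference was 3.19 (0.29 to 6.10, adjusted p = 0.850). A missing call here does not show that the kits gave an equal response. In simulated data both interactions with V4 recovered 0% of 2-fold differences.

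Of 54 further genes of the pathway in 6 lists, 46 were listed with Pico, 47 with V4 and 48 with TruSeq. In Pico 5 were called higher and 6 lower, in V4 5 and 4, and in TruSeq 12 and 14. As shares these were 10.9% and 13.04%, 10.6% and 8.51%, and 25.0% and 29.2%. The shares of all genes were 6.78% and 10.8%, 3.6% and 7.41%, and 12.3% and 21.8%. The lower shares in Pico and V4 were thus close to those of all genes, and no difference in shares was tested. Named first in each list are genes called in the same direction in all 3 kits, and any further name was chosen after its values were seen.

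Among the pentraxin relatives, Ptx4, Nptx2, Nptxr, Mptx1 and Mptx2 were listed in no table, and Ptx3, the long pentraxin made by macrophages and endothelium, and Nptx1 had a mean below 2 counts in any group. The Fc gamma receptors, their common chain and C1q, to which bound pentraxins attach, had 0 of 8 genes called higher in each kit, against 6.78%, 3.6% and 12.3% of all genes. Fcgr2b, the inhibitory Fc receptor, was lower in all kits, with log2 fold changes of -1.42 ± 0.28 with Pico, -1.94 ± 0.36 with V4 and -1.42 ± 0.14 with TruSeq. C1qc was also lower in V4 and TruSeq, and Fcgr4 in TruSeq, so that 1, 2 and 3 of 8 were lower, against 10.8%, 7.41% and 21.8% of all genes, which in Pico is close to the share of the list. The call of Fcgr4 was near the cutoff (limma-voom, adjusted p = 0.0481). The lower calls in TruSeq became 2 with TMM factors, edgeR, DESeq2 or no filter. With no filter they became 0 in Pico and 1 in V4. The list median was -0.30, -0.58 and -0.46 in Pico, V4 and TruSeq.

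Of 10 other Toll-like receptors, 0 were called higher and 1 lower with Pico. With V4, 1 and 1 of 9 were called, and with TruSeq 2 and 3 of 10. Of all genes, 6.78% and 10.8%, 3.6% and 7.41%, and 12.3% and 21.8% were called higher and lower in these kits. No difference from those shares was tested. Tlr12, a sensor of parasite profilin, was lower in all kits, by log2 fold changes of -3.06 ± 0.69, -5.75 ± 1.01 and -4.17 ± 0.40, from 120 ± 28.2 counts after saline (SD, n = 3) to 6 ± 1.73 after IL-1β in TruSeq. Tlr13 was higher in V4 and TruSeq, Tlr1, a partner of TLR2, was higher in TruSeq, and Tlr3 and Tlr5, the sensors of double-stranded RNA and flagellin, were lower in TruSeq. The remaining listed receptors were not called, and the medians were -0.03, -0.66 and 0.09.

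Among 14 adaptors, kinases and regulators of the TLR4 and MyD88 pathway, 4 were higher and 2 lower of 13 with Pico, 3 and 0 of 14 with V4 and 7 and 4 of 14 with TruSeq. Of all genes, 6.78% and 10.8%, 3.6% and 7.41%, and 12.3% and 21.8% were higher and lower in these kits. With no filter, 1 and 1 of 14 were called with Pico, 1 and 0 with V4 and 7 and 3 with TruSeq. The list medians were 0.42, -0.12 and 0.27. Irak3, a kinase-like protein that restrains signalling from MyD88, had the largest log2 fold changes of this list, 3.95 ± 0.55, 4.23 ± 0.57 and 4.53 ± 0.61, from 11.7 ± 4.93 to 269.7 ± 104 counts in TruSeq. Tnip1, which acts with the ubiquitin editor A20 to limit NF-kappaB, was higher by 1.79 ± 0.31, 2.88 ± 0.61 and 1.38 ± 0.21. Ticam1, the adaptor TRIF of the other arm of TLR4, was higher by 1.14 ± 0.26, 1.37 ± 0.31 and 1.09 ± 0.11. Tirap, the bridging adaptor, was also higher in Pico and TruSeq, and Irak2 and Peli2 were lower there. Sarm1, Irak4 and Tollip were higher and Peli1 and Sigirr lower in TruSeq. With TMM factors the 4 lower calls of TruSeq became 2.

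Of the MD-1 and RP105 pair and the chaperones, Hsp90b1, the endoplasmic reticulum chaperone gp96 that Toll-like receptors need to fold, was higher by 0.75 ± 0.10, 0.70 ± 0.17 and 0.95 ± 0.18. Cnpy4 was lower in Pico and TruSeq, and Cd180 and Ly86, which encode RP105 and MD-1, were lower in TruSeq, where DESeq2 called 1 in place of 3 lower. Of the 6 genes of this list, 1 was called higher and 1 lower with Pico, 1 and 0 with V4 and 1 and 3 with TruSeq. Of all genes, 6.78% and 10.8%, 3.6% and 7.41%, and 12.3% and 21.8% were called higher and lower. The list had medians of -0.36, -0.62 and -0.43. In the list for endotoxin binding, transfer and detoxification, Bpi was listed in no table. Of its 8 tested genes, 0 were called higher and 1 lower with Pico and with V4, and 2 and 1 with TruSeq, against the same shares of all genes. Alpl, an alkaline phosphatase that can remove phosphate from endotoxin, was lower by log2 fold changes of -1.95 ± 0.37, -2.54 ± 0.34 and -1.86 ± 0.15. Scarb1 and Pglyrp1 were higher in TruSeq, Pglyrp1 on a mean of only 9.33 counts against 1.33. The medians were 0.17, 0.35 and 0.39. The higher calls became 2 in Pico with TMM factors, edgeR or DESeq2 and 1 with the filter of 10 counts in 3 libraries. In V4 they became 1 with DESeq2. In TruSeq they became 3 with TMM factors or edgeR, 4 with DESeq2 and 1 with that filter.

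The adjusted p of these 7 genes was at most 0.0235 (Hsp90b1 in V4). Irak3 and Alpl kept their calls in every kit under each other fit, filter and scaling and without any 1 mouse, and Fcgr2b when any 1 mouse was left out, whereas with every gene of the 3 tables tested Fcgr2b, Tnip1, Ticam1 and Hsp90b1 lost theirs in Pico and V4, and Tlr12 in V4 (adjusted p up to 0.126). Leaving out 1 mouse ended the call of Tlr12 in Pico and V4 (mouse I9579 or I9582, adjusted p = 0.0610 and 0.0531), of Ticam1 in Pico and V4 (mice I9582, U9574 or U9576, and I9582, I9583, U9574 or U9575), of Tnip1 in V4 (U9574 or U9575) and of Hsp90b1 in V4 (I9579, I9582, I9583 or U9574), with adjusted p up to 0.0700 in Pico and 0.108 in V4, and DESeq2 gave 0.249 for Tlr12 in V4.

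**Figure D5:**
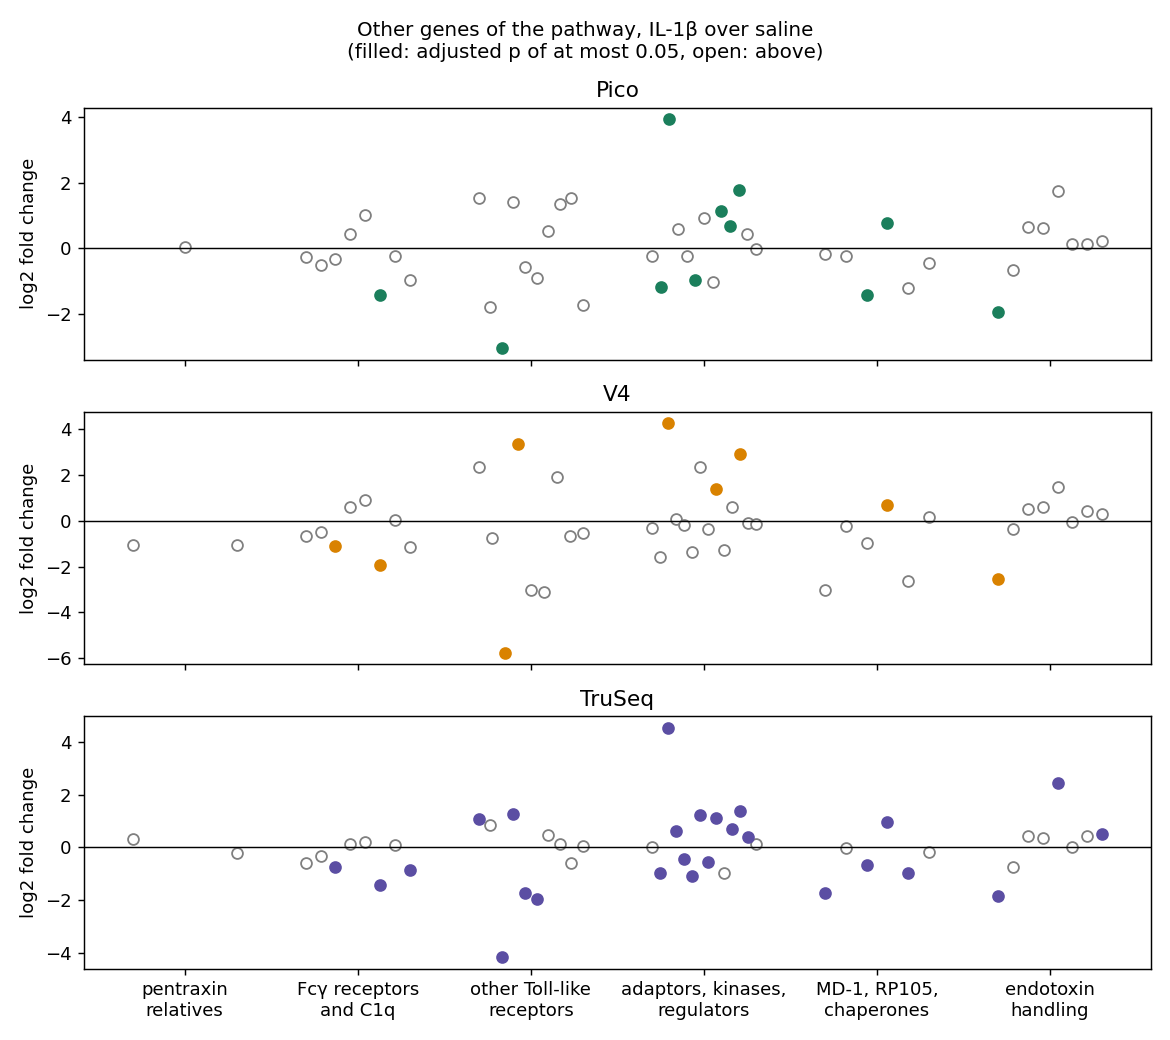
Log2 fold change of IL-1β over saline of the further pathway genes listed in each kit, by list; each point is 1 gene, filled where its adjusted p was at most 0.05 and open otherwise. The highest filled point in each panel is Irak3 and the lowest is Tlr12, and the pentraxin relatives have no filled point.

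The genes with the profile nearest to each called member were ranked by Euclidean distance over the 18 libraries, on log2(CPM + 1) centred on the saline mean of the kit, among the 8960 genes that averaged 20 counts or more in each kit. The nearest 3 were 4933426M11Rik, Mbd1 and Litaf for Crp (distances 0.725 to 0.867) and Ptpn1, Hpx and Orm1 for Lbp (0.714 to 0.726). They were Orm1, Fgg and 2010003K11Rik for Myd88 (1.02 to 1.12) and Adcy1, Tacc2 and Gm5530 for Apcs (1.12 to 1.28). Cd14 had no close neighbour, with Saa1, Mt1 and Cdkn1a at 2.498 to 2.67, and Tlr2 had Tifa at 1.39 and then Gbp6 and Cdkn1a at 2.19 and 2.27. Ly96 was below the minimum count in Pico and was not ranked. The list depended on the added count, and with 5 in place of 1 only 6 of these 18 names were again among the nearest 3 (4933426M11Rik, Litaf, Tacc2, Ptpn1, Hpx and 2010003K11Rik). All of these libraries share the 6 mice, so the distances carry no test.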

How the data were processed

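The values are counts that the authors deposited as 3 tables of whole reads per gene. The authors aligned reads to mm9 with GSNAP, removed ribosomal reads and resampled each kit to an equal depth with their PORT pipeline, separately for each kit. Pico and TruSeq tables hold sense reads, and V4 holds both strands. Pico was prepared more than once, and the paper also describes a repeat TruSeq run on these samples. Which run the Pico and TruSeq tables hold is not given in the sources used here. Levels were therefore compared within a kit only.

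Each kit was fitted with limma-voom (limma 3.58.1, R 4.3.3) on library totals, over genes with at least 1 count, with Benjamini-Hochberg adjustment. Interactions used 12 libraries. Alternatives were TMM factors, edgeR 4.0.16, DESeq2 1.42.0, a filter of 10 counts in 3 libraries, no filter, cutoffs of 0.1 and 0.01, leaving out each mouse, the mouse as a block, thinning, other lengths and another pseudocount. Fits were tested on simulated data. At 2-fold, 52% of the changed genes were recovered with Pico, 15.5% with V4 and 92% with TruSeq. Of the calls, 7.96%, 13.9% and 5.64% were false. At 4-fold, 90%, 76% and 100% were recovered, with 3.74%, 11.6% and 4.76% of calls false. The false share in V4 was thus above the nominal 0.05 at both folds. Replicates are separate mice, and chi-square per degree of freedom was at least 7.04 between replicates, so none was a copy. All 21018 gene identifiers matched the GENCODE annotation of mm9, which gave exons and coordinates. Count ratios have exact binomial intervals at 95%. Tables and plots were made in Python 3.11.15 (pandas 2.3.3, matplotlib 3.10.9, numpy 2.4.6, scipy 1.17.1).

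The mouse numbers pair libraries across kits, since each mouse's RNA was split. Deviations from group means of 1 mouse in different kits correlated at 0.194 to 0.446 (Pico with TruSeq), 0.168 to 0.458 (V4 with TruSeq) and 0.0796 to 0.234 (Pico with V4), against -0.360 to -0.0327 between different mice of a treatment. Deviations from a group mean cancel within the group, so positive correlations of the same mouse tend to make those between different mice negative. The negative range is thus no separate evidence for the pairing.

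The members, pathway lists and markers were chosen with earlier results of these data known. Named genes are the members, their 3 nearest profiles, list genes called in the same direction in all 3 kits and list genes in no table. Other names are marked.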

Additional observations from a re-analysis of the deposited data

How the results depend on the processing

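All 72 recounts of called members gave the same count, and 310 recomputed member fold changes kept their direction and side of the threshold. The 1 exception was Tlr4 in TruSeq, which was not called in any setting and ranged from -0.42 to 0.012 when 1 mouse was left out. With 5 in place of 1 added to CPM, 6 of the 18 names were again among the nearest 3. With the mouse as a replicate block, no member was called, and the Ly96 difference of Pico from TruSeq was 1.78 (adjusted p = 0.599) and from V4 1.82 (0.685). Differences between kits close to 0 changed sign, none of them called, and the cause was not tested. For Cd14, Pico minus TruSeq was -0.12 with edgeR, -0.070 with DESeq2 and -0.57 to 1.28 with 1 mouse left out, Pico minus V4 was -0.29, -0.25 and -0.34 to 1.21, and V4 minus TruSeq was -0.23 to 0.65 with 1 mouse left out. For Lbp, Pico minus V4 was -0.0062 with the block, -0.083 with TMM factors, -0.086 with edgeR, -0.079 with DESeq2 and -0.081 to 0.057 with 1 mouse left out. With 1 mouse left out, the range was -0.072 to 0.072 for Crp in Pico minus TruSeq, -0.16 to 0.032 for Apcs and -0.30 to 0.16 for Ly96 in V4 minus TruSeq, and -0.29 to 0.048 for Myd88 in Pico minus V4. Counts over all genes moved by over 1.5 times in 25 recounts, against 53 that stayed within that, in V4 from 649 higher to 1129 with DESeq2 and to 341 to 381 without I9582, U9574 or U9575, and from 1337 lower to 874 with TMM factors, 774 with no filter and 567 to 762 without any of the mice but U9576. In Pico they moved from 1228 higher and 1951 lower to 791 and 1146 with no filter, to 741 higher without I9582 and to 1024 to 1151 lower without an IL-1β mouse, and in TruSeq from 4232 lower to 2776 with DESeq2. At a cutoff of 0.01 there were 756 higher and 1128 lower for Pico, 300 higher and 464 lower for V4, and 1465 higher and 2616 lower for TruSeq. Depth limits Tlr4 in all kits and the saline values of Cd14 and Ly96 in Pico.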
